A study of Drosophila melanogaster with 8 samples.

Results

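The mitochondrial ribosomal protein genes of Drosophila melanogaster were examined in ring glands that lacked the histone demethylase KDM5 and in wild-type ring glands. Members were all genes whose symbol begins with mRpL (large subunit) or mRpS (small subunit), which gave 73 of the 17558 genes in the count table, 47 mRpL and 26 mRpS. The assay was mRNA-seq of whole ring glands, with 4 libraries from kdm5[140] larvae, which carry a null allele of Kdm5 and lack the protein in the whole animal, and 4 from w[1118] larvae, the wild type. Both genotypes were at the wandering stage of the third larval instar and of mixed sex (50% males), grown on standard medium at the same temperature, and each library pooled 80 glands. Larvae of the kdm5[140] genotype reach wandering later, so the glands were matched by stage and differed in age, and age and genotype cannot be told apart. The ring gland holds the prothoracic gland, which makes ecdysone, together with the corpora allata and the corpora cardiaca, and no library was restricted to 1 of these cell types.

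Mitochondria carry their own ribosomes, which translate the few mRNAs of the mitochondrial genome into core subunits of the respiratory chain. All proteins of these ribosomes are encoded in the nucleus, translated in the cytosol and imported, while the mitochondrial genome provides the rRNAs. The large subunit forms peptide bonds and holds the exit tunnel for the new chain, and the small subunit binds and decodes the mRNA.

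Library depth ranged from 17131110 to 18816043 counts in kdm5[140] and from 17163795 to 19494692 in wild type, and the mRp genes together took 0.167-0.174% of the counts in kdm5[140] libraries and 0.174-0.198% in wild-type libraries. All 6 prothoracic gland markers were present in every library, and their summed level was lower in kdm5[140] libraries (29309-37910 CPM, counts scaled to library size) than in wild-type libraries (40572-43638 CPM). Of these, spok fell (log2 fold change -0.83) and dib was higher (0.56), both past the threshold used below. The others did not pass it. Estimates were negative for phm (-0.22), sad (-0.33) and nvd (-0.24) and positive for tor (0.53), which was 231.7-272.2 CPM in kdm5[140] and 151.2-228.6 CPM in wild type. Markers of other tissues were detected in both genotypes, and some moved with genotype. The neuronal gene elav was higher in kdm5[140] (93.3-110.9 CPM) than in wild type (68.3-80.6 CPM), with a log2 fold change of 0.39 (edgeR adjusted p = 0.00495). The tracheal gene trh, at 111.8-146.6 CPM in kdm5[140] and 148.5-212.3 CPM in wild type, did not overlap between genotypes either but did not pass the test (-0.38, adjusted p = 0.0466). As summed levels, the lists overlapped. The 2 corpus allatum markers summed to 570-711 CPM in kdm5[140] and 630-695 CPM in wild type. The corpus cardiacum marker Akh stood at 1401-1563 CPM in kdm5[140] and 975-1454 CPM in wild type. The 2 tracheal markers summed to 159-208 CPM in kdm5[140] and 200-295 CPM in wild type. The 3 neuronal markers summed to 140.5-186 CPM in kdm5[140] and 110.7-153.8 CPM in wild type, the 2 muscle markers to 384.5-577.9 CPM in kdm5[140] and 276.7-448.7 CPM in wild type, the 3 fat body markers to 943-3696 CPM in kdm5[140] and 582-1597 CPM in wild type, and the 3 salivary gland markers to 139-1514 CPM in kdm5[140] and 376-792 CPM in wild type. In bulk tissue, fewer cells of a type and less RNA per cell cannot be told apart, and the part of tissue composition in the results below was not tested. Counts on the Kdm5 gene, listed under its older symbol lid, were 196 ± 3.2 CPM in kdm5[140] and 154 ± 13 CPM in wild type (SD, n = 4 each). A count over the whole gene does not resolve the lesion of the allele, so it is no check of the genotype labels.

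Of the tested mRp genes, 29.2% passed the test as lower in kdm5[140] ring glands than in wild type, in both subunits, and 50 of 72 were not called in either direction. Of the 72 members with enough reads to test, 21 were called lower and 1 higher by edgeR's quasi-likelihood test at an adjusted p (Benjamini-Hochberg over all 9317 tested genes) under 0.01. Among all tested genes, 9.62% were called lower and 7.91% higher. For the large subunit, 14 of 46 tested genes fell (30.4%) and only mRpL11 rose. For the small subunit, 7 of 26 fell (26.9%) and none rose. At an unadjusted p under 0.05, 1 (mRpS29) was higher, beside 1900 of all 9317 tested genes. By DESeq2, 0 were higher, beside 10.4% of its tested genes. The fold change was negative for 40 of the 46 mRpL genes and 23 of the 26 mRpS genes. The median log2 fold change was -0.25 for mRpL genes (quartiles -0.46 and -0.15) and -0.18 for mRpS genes (quartiles -0.48 and -0.08), beside 0.02 for all tested genes. The difference between subunits was not tested, since genes that share libraries are not replicates.

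**Figure D1:**
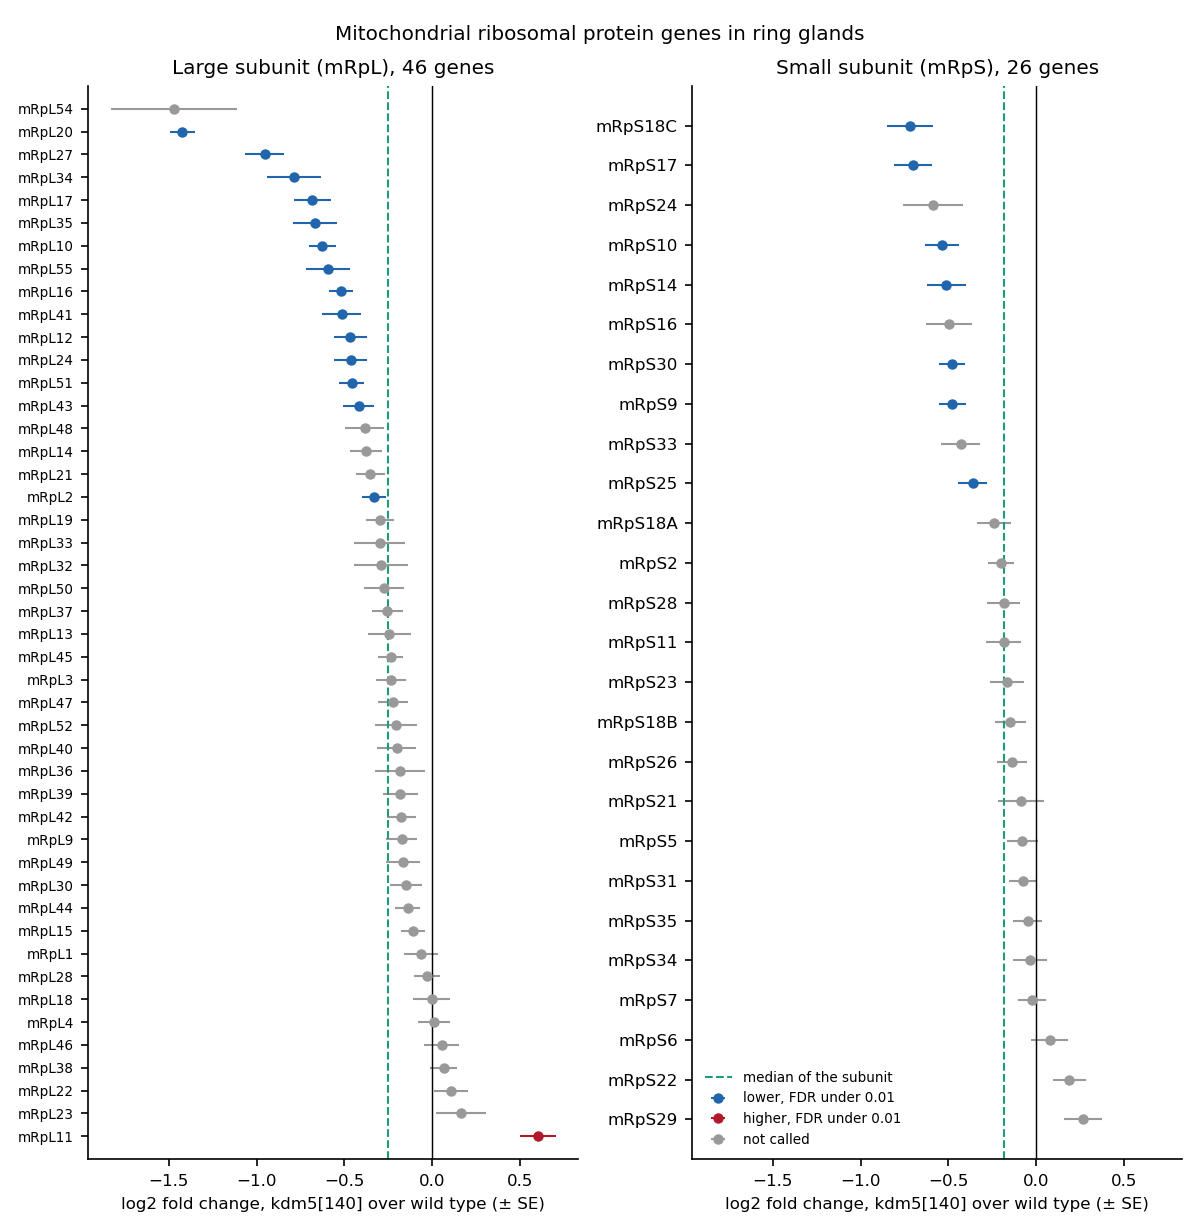
Log2 fold change of kdm5[140] over wild type (x axis) with its standard error for each of the 46 mRpL genes (left) and 26 mRpS genes (right), from 4 libraries a genotype. Blue points were called lower and the red point (mRpL11) higher at an adjusted p under 0.01, grey points were not called, and the dashed lines mark the subunit medians at -0.25 and -0.18.

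Counting genes whose 4 kdm5[140] values all lay below the 4 wild-type values gave 23 mRpL and 13 mRpS genes, 36 of 72, where this was so for 17.6% of all tested genes. The opposite order was seen for mRpL11 alone among members and for 15.6% of all tested genes. With an adjusted p under 0.05 as the threshold, 20 mRpL and 10 mRpS genes were lower, against 16.5% of all tested genes, and 1 member was higher, against 14.4%. DESeq2 called 17 mRpL and 10 mRpS genes lower, with 11.5% of its tested genes lower, and mRpL11 alone higher, with 10.4% higher. A fit with an offset for gene length called 18 mRpL and 6 mRpS genes lower (12.9% of all tested genes) and mRpL11 higher (6.15%).

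Scaling moved these counts. With library totals alone in place of trimmed-mean (TMM) factors, the fold change of the median tested gene was 0.12 on the log2 scale where it was 0.02 with TMM, and lower calls made up 36.1% of all calls where they made up 54.9% with TMM. Under that scaling, 9 mRpL and 4 mRpS genes were called lower, beside 6.62% of all tested genes, and mRpL11 was called higher, beside 11.7%. The medians of mRpL and mRpS genes were then -0.15 and -0.09, so both were below that of all tested genes, and 37 mRpL and 17 mRpS genes were negative. Single libraries mattered too. The 14 lower calls of mRpL genes became 6 without kdm5[140] replicate 1 or 2 or wild-type replicate 2 or 3, 8 without kdm5[140] replicate 4 and 9 without wild-type replicate 4, and the 7 of mRpS genes became 4 without wild-type replicate 2 or 3. Calls over the whole table were also fewer in these fits, with 896 of 9317 tested genes lower when all libraries were used. Lower calls were 556 of 9491 without kdm5[140] replicate 1, 564 of 9461 without replicate 2 and 610 of 9396 without replicate 4. For wild type they were 554 of 9524 without replicate 2, 537 of 9537 without replicate 3 and 645 of 9502 without replicate 4. Of the 22 members called, 11 were called in each of the 8 fits that left out 1 library.

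With TMM scaling, both subunits were lower in every kdm5[140] library than in any wild-type library when their genes were summarised. The median mRpL gene stood at 4.15, 4.28, 4.42 and 4.11 log2 CPM in kdm5[140] replicates 1 to 4, against 4.62, 4.75, 4.77 and 4.69 in wild-type replicates 1 to 4. For the median mRpS gene the values were 4.13, 4.18, 4.20 and 4.12 log2 CPM in kdm5[140], against 4.39, 4.63, 4.55 and 4.44 in wild type. Neither set of values overlapped between genotypes. Summed over genes, mRpL transcripts came to 1069 ± 69 CPM in kdm5[140] and 1286 ± 55 CPM in wild type, and mRpS transcripts to 594 ± 29 CPM in kdm5[140] and 683 ± 27 CPM in wild type (SD, n = 4 each). With library totals alone, the mRpS sums overlapped (607-625 CPM in kdm5[140], 607-691 CPM in wild type), while the mRpL sums (1060-1125 CPM in kdm5[140], 1135-1288 CPM in wild type) and both medians did not. The ratio of the mRpL sum to the mRpS sum, which no choice of library scaling can alter, was 1.80 ± 0.04 in kdm5[140] (1.75, 1.79, 1.83 and 1.82) and 1.88 ± 0.02 in wild type (1.87, 1.86, 1.91 and 1.90). All 4 ratios in kdm5[140] lay under the lowest in wild type, a description with no test. The mRpL sum includes mRpL20, at 15.3 ± 0.5 CPM in kdm5[140] and 41.05 ± 2.5 CPM in wild type. The order of the ratios may therefore rest on this 1 gene and is not shown for the subunit as a whole.

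**Figure D2:**
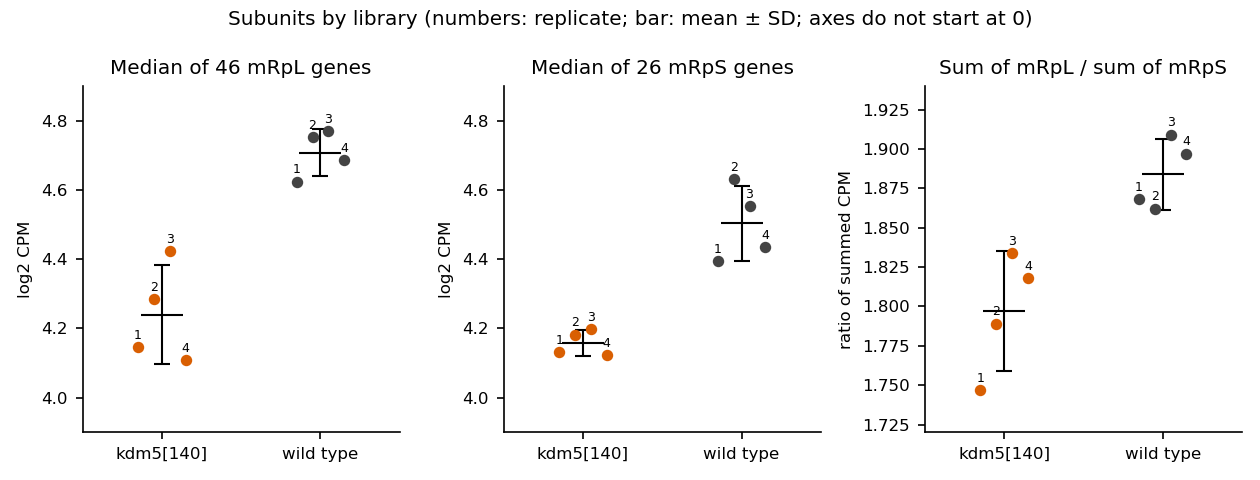
Median log2 CPM of the 46 mRpL genes (left) and 26 mRpS genes (middle) and the ratio of their summed CPM (right) in each library, kdm5[140] beside wild type. Numbers mark replicates, bars the mean ± SD of 4 libraries, and no y axis starts at 0. The medians ran from 4.11 to 4.42 in kdm5[140] and from 4.62 to 4.77 in wild type for mRpL genes. The ratio, with mRpL20 in the mRpL sum, did not overlap between genotypes.

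Libraries of 1 genotype were not alike for these genes. Of the 4 kdm5[140] libraries, replicate 3 held the highest level of 42 of the 72 tested members (58.3%), 31 mRpL and 11 mRpS, while it was highest for 36.7% of all tested genes. Replicate 3 also had the most spok of the kdm5[140] libraries, 7897 CPM beside 5890-6087 CPM in the other 3. Of the wild-type libraries, replicate 1 was lowest for 42 of the 72 members (58.3%) and for 35.0% of all tested genes. Without kdm5[140] replicate 3 the median log2 fold changes were -0.30 for mRpL and -0.20 for mRpS genes, and without wild-type replicate 1 they were -0.30 and -0.22. Without kdm5[140] replicate 1 they were -0.21 and -0.20. The difference of the medians, mRpL minus mRpS, was then -0.0096, where it was -0.065 with all libraries and -0.098 without kdm5[140] replicate 3.

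The largest change past the threshold was in mRpL20, whose bacterial counterpart binds the large rRNA early in assembly. Levels of mRpL20 were 15.6, 14.6, 15.3 and 15.8 CPM in kdm5[140] and 43.5, 38.5, 39.3 and 42.9 CPM in wild type. The groups were far apart, with little spread in kdm5[140], and mRpL20 fell by 1.42 ± 0.07 on the log2 scale (SE, edgeR adjusted p = 1.75e-06), or by 62.7%. No other called member fell as far, and mRpL20 was called in all 8 fits without 1 library, at log2 fold changes from -1.45 to -1.39. The gene lies at 3L:13017149-13017867 on the minus strand (dm6).

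Next came mRpL27, the counterpart of a bacterial protein near the site of peptide bond formation, at 14.0, 11.1, 15.2 and 14.8 CPM in kdm5[140] against 24.7, 27.5, 29.0 and 25.5 CPM in wild type (log2 fold change -0.95 ± 0.11, adjusted p = 0.000240). Every kdm5[140] value lay well below the wild-type range. Transcripts of mRpL34, a short rRNA-binding protein of bacterial origin, were scarcer, at 5.11, 4.58, 4.77 and 5.38 CPM in kdm5[140] against 7.68, 9.24, 9.53 and 7.84 CPM in wild type (-0.79 ± 0.15, adjusted p = 0.00395). Those of mRpL35, also of bacterial origin, were 10.4, 10.4, 13.3 and 9.76 CPM in kdm5[140] against 17.1, 19.2, 18.2 and 15.1 CPM in wild type (-0.67 ± 0.13, adjusted p = 0.00345). Neither gene's values overlapped between genotypes, although each was called in only 3 of the 8 fits without 1 library.

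**Figure D3:**
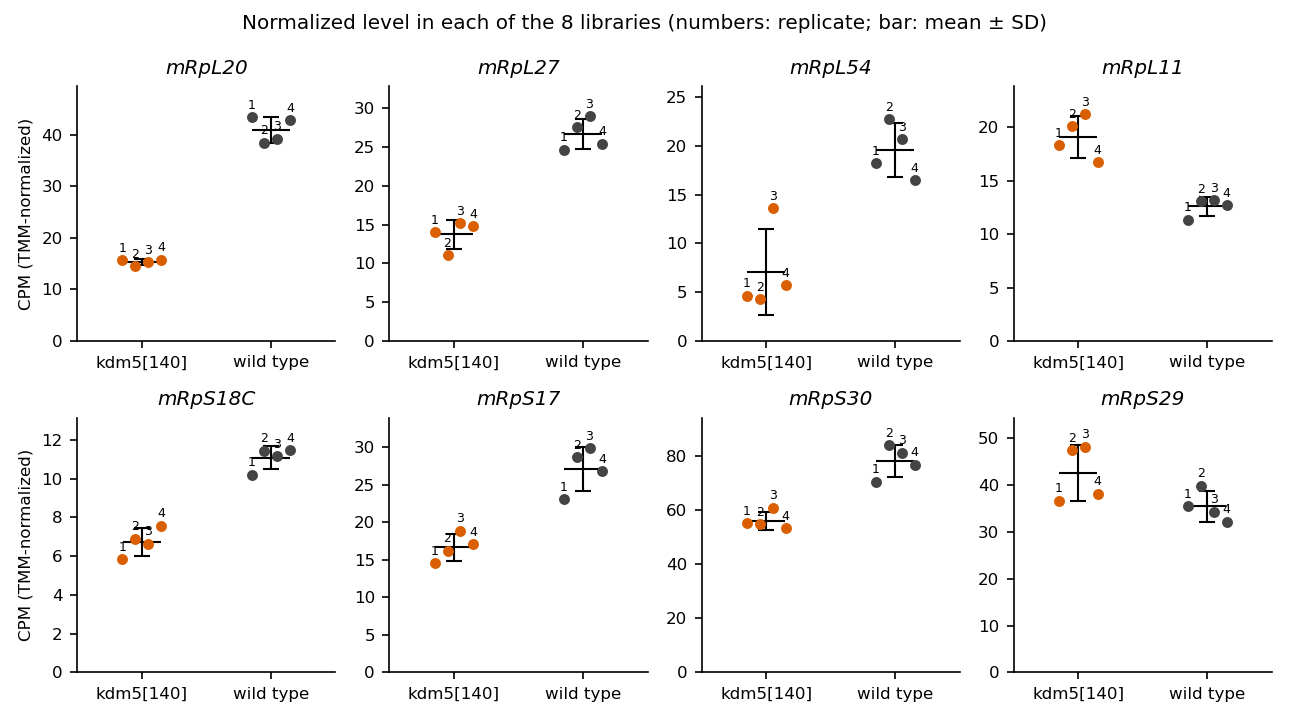
TMM-normalized CPM (y axis, from 0) of 8 members in each library, kdm5[140] in orange on the left of each panel and wild type in grey on the right, with replicate numbers and the mean ± SD. Values of mRpL20, mRpL27, mRpS18C, mRpS17 and mRpS30 were lower in every kdm5[140] library, those of mRpL11 higher in every one, kdm5[140] replicate 3 stood apart for mRpL54 (13.6 CPM), and those of mRpS29 overlapped.

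Estimated as the most negative of all members, mRpL54 nevertheless missed the threshold. This mitochondria-specific large subunit protein gave 4.65, 4.30, 13.6 and 5.73 CPM in kdm5[140] against 18.2, 22.8, 20.7 and 16.5 CPM in wild type. Replicate 3 stood apart from the other kdm5[140] libraries, yet no value overlapped with wild type (log2 fold change -1.47 ± 0.36, adjusted p = 0.0154). Without kdm5[140] replicate 3, mRpL54 passed the threshold at -1.995, and DESeq2 with all 8 libraries gave an adjusted p of 0.000100.

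Members of the stalk, which recruits translation factors to the large subunit, all passed the threshold but did not move together. The stalk base protein mRpL10 stood at 17.99, 19.2, 19.8 and 16.8 CPM in kdm5[140] against 28.3, 29.7, 27.7 and 28.1 CPM in wild type (-0.62 ± 0.08, adjusted p = 0.000304). The stalk protein mRpL12 stood at 39.96, 36.9, 46.8 and 37.3 CPM in kdm5[140] against 49.3, 59.1, 59.0 and 55.0 CPM in wild type (-0.47 ± 0.09, adjusted p = 0.00461). In contrast, mRpL11, which sits at the stalk base in bacteria, stood at 18.4, 20.1, 21.2 and 16.7 CPM in kdm5[140] against 11.4, 13.1, 13.2 and 12.7 CPM in wild type (0.60 ± 0.10, adjusted p = 0.00209). Its lowest kdm5[140] value was above its highest wild-type value, and mRpL11 was called higher in all 8 fits without 1 library, under total-count scaling and by DESeq2. The gene lies at 3R:14511838-14512691 on the plus strand (dm6). Of the 8 fits without 1 library, all 8 called mRpL10 lower and 2 called mRpL12 lower.

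Other parts of the large subunit held fewer called genes. For comparison, 9.62% of all tested genes were called lower and 7.91% higher, with a median of 0.02. Around the exit tunnel, mRpL17 and mRpL24 fell among 7 genes (median -0.22), with mRpL17 at 16.0, 18.3, 19.2 and 13.8 CPM in kdm5[140] against 25.3, 27.7, 26.9 and 28.0 CPM in wild type (-0.68 ± 0.11, adjusted p = 0.00137). The tunnel proteins mRpL22 and mRpL23 had positive estimates of 0.11 and 0.17 and did not pass the test. In the central protuberance, which joins the large to the small subunit, mRpL27 alone fell among 6 genes (median -0.10), while mRpL38 and mRpL46 gave 0.07 and 0.05. Both mRpL16 (-0.52 ± 0.07) and mRpL2 (-0.33 ± 0.07), rRNA-binding proteins near the catalytic centre, fell. Of the 8 fits without 1 library, all 8 called mRpL16 and mRpL17, while 3 called mRpL24 and 2 called mRpL2. The remaining lower calls were mRpL55 (-0.59), mRpL41 (-0.51), mRpL51 (-0.46) and mRpL43 (-0.42), of which all but mRpL55 have no bacterial counterpart. In the fits without 1 library, mRpL51 was called in all 8, mRpL55 and mRpL43 in 2 each and mRpL41 in 1.

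In the small subunit the largest falls were in mRpS18C and mRpS17, both in the body and platform that face the large subunit and of bacterial origin. Levels of mRpS18C were 5.83, 6.90, 6.65 and 7.57 CPM in kdm5[140] against 10.2, 11.4, 11.2 and 11.5 CPM in wild type (-0.72 ± 0.13, adjusted p = 0.00284). Those of mRpS17 were 14.5, 16.2, 18.9 and 17.1 CPM in kdm5[140] against 23.1, 28.7, 29.9 and 26.8 CPM in wild type (-0.70 ± 0.11, adjusted p = 0.00124). For both genes every kdm5[140] value lay below every wild-type value. With mRpS25 (-0.36 ± 0.08, adjusted p = 0.00845), which no fit without 1 library called, 3 of 14 body and platform genes fell, and their median was -0.16. Over all tested genes, 9.62% were lower, 7.91% higher and the median was 0.02. Sequence-related to mRpS18C, mRpS18A and mRpS18B gave -0.24 (adjusted p = 0.0793) and -0.15 (adjusted p = 0.234) and were not called.

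Of 9 proteins of the head, the part of the small subunit that moves with the tRNAs, 3 fell (mRpS9, mRpS10 and mRpS14) and the median was -0.43. The same all-gene values, 9.62% lower, 7.91% higher and a median of 0.02, stand beside these. Transcripts of mRpS10 stood at 18.1, 18.4, 16.9 and 16.4 CPM in kdm5[140] against 22.2, 25.7, 24.5 and 29.0 CPM in wild type (-0.54 ± 0.10, adjusted p = 0.00255). The value of mRpS9 was -0.48 ± 0.08 (adjusted p = 0.00151) and that of mRpS14 -0.51 ± 0.11 (adjusted p = 0.00673), and neither overlapped between genotypes. In the 8 fits without 1 library, mRpS9 and mRpS10 were called in all 8 and mRpS14 in 3. In the same part, mRpS29, a GTP-binding protein known in humans as DAP3, had the most positive estimate of the small subunit. Its levels were 36.6, 47.3, 48.2 and 38.1 CPM in kdm5[140] against 35.4, 39.8, 34.3 and 32.1 CPM in wild type, which overlapped (0.27 ± 0.11, adjusted p = 0.0908). The estimate for mRpS22, which has no bacterial counterpart, was 0.19 ± 0.09 (adjusted p = 0.150).

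Symbols do not settle the subunit of every member, since the human counterparts of mRpS30 and mRpS18A lie in the large subunit. Among the most abundant small subunit transcripts by CPM, mRpS30 stood at 55.4, 54.9, 60.9 and 53.3 CPM in kdm5[140] against 70.5, 84.2, 81.3 and 76.9 CPM in wild type (-0.48 ± 0.07, adjusted p = 0.00115). Its groups did not overlap, and it was called in all 8 fits without 1 library. Counting both genes as large subunit gave 15 mRpL and 6 mRpS genes lower.

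Large subunit proteins with a counterpart in bacteria numbered 30, of which 11 fell and 1 rose (median -0.29), while 3 of 16 tested without one fell (median -0.22). In the small subunit 5 of 16 with a bacterial counterpart fell (median -0.22), and 2 of 10 without (median -0.11). Among all tested genes, 9.62% were called lower and 7.91% higher, and the median was 0.02. Subunits follow the symbols here, with mRpS30 and mRpS18A counted as small. These are counts beside one another, and the difference was not tested.

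Per kilobase of exon, tested members ran from 7.17 to 57.5 CPM in kdm5[140] and from 10.8 to 75.3 CPM in wild type. The median was 25.1 CPM per kb in kdm5[140] and 30.6 in wild type for mRpL genes, and 23.2 in kdm5[140] and 27.7 in wild type for mRpS genes. The highest large subunit levels in wild type belonged to mRpL12 (54.5 ± 6.2 CPM per kb in kdm5[140], 75.3 ± 6.2 in wild type), mRpL20 (25.5 ± 0.9 in kdm5[140], 68.2 ± 4.2 in wild type) and mRpL30 (57.5 ± 6.4 in kdm5[140], 63.8 ± 4.6 in wild type), and in wild type neighbours in this order lay closer than the sum of their SDs. Thus mRpL20 stood near the top of the large subunit in wild type and close to its median in kdm5[140]. Highest of the small subunit in wild type were mRpS7 (45.3 ± 3.0 in kdm5[140], 45.99 ± 3.9 in wild type), mRpS22 (45.1 ± 5.6 in kdm5[140], 39.6 ± 2.4 in wild type) and mRpS17 (23.4 ± 2.5 in kdm5[140], 38.0 ± 4.2 in wild type). In wild type mRpS30 (37.6 ± 2.9) and mRpS16 (37.6 ± 3.6) lay within the spread of mRpS17, and in kdm5[140] mRpS17 was close to the median of its subunit. The lowest tested members were mRpL21 (9.25 ± 0.62 in kdm5[140], 11.8 ± 0.5 in wild type) and mRpS24 (7.17 ± 0.83 in kdm5[140], 10.8 ± 0.8 in wild type), neither of which passed the test (log2 fold changes -0.35 and -0.59, adjusted p = 0.0106 and 0.0276).

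**Figure D4:**
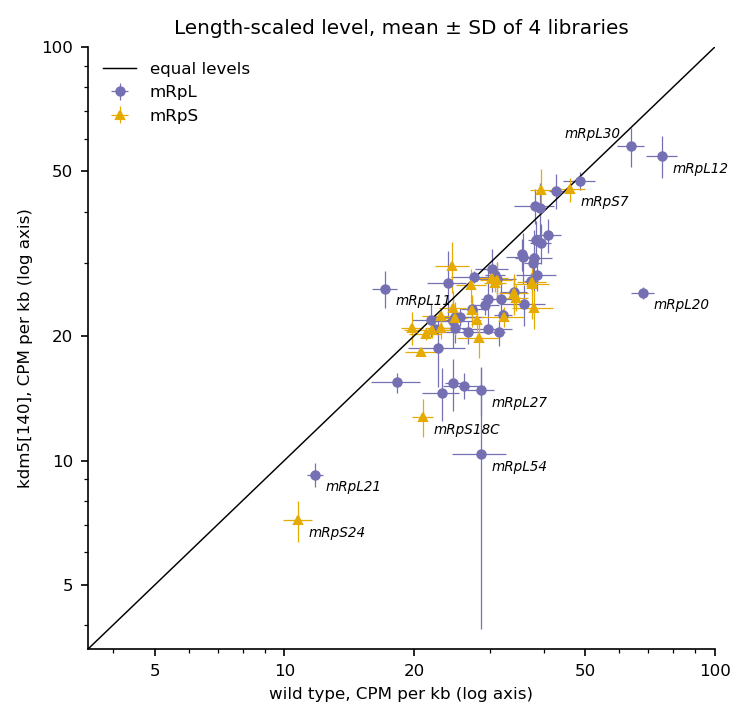
Mean CPM per kb in kdm5[140] (y axis) against wild type (x axis) for 46 mRpL genes (circles) and 26 mRpS genes (triangles), on log axes, with SD over 4 libraries as bars and the line of equal levels. Most points lie under the line, mRpL20 (25.5 against 68.2) and mRpL54 farthest, and mRpL11 lies above it.

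Only mRpL53 went untested, with 0 counts in all 8 libraries, which allows up to 3 counts a library (0.154-0.175 CPM). All 829 bases of its exons lie within exons of CG33155 on the same strand, a gene that itself reached at most 0.497 CPM, so the 0 says nothing of expression if reads shared by 2 genes were left uncounted.

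Overlap with other genes limits some of the values. Exons of 42 members overlap those of a gene on the opposite strand, 15 of the 22 called members among them, and the strand setting of the read counting is not given in the sources used here. The overlap was 100 bases or more for mRpL17, mRpL44, mRpL48, mRpS9, mRpS14, mRpS21 and mRpS24, and mRpL13 shares 236 bases with CG10602 on the same strand, so these values are uncertain. Among the 30 tested members without any such overlap, mRpL20 and mRpL27 among them, 7 fell, 0 rose and the median was -0.24. Of all tested genes, 9.62% were called lower and 7.91% higher. At an unadjusted p under 0.05 none of these 30 members was higher, beside 1900 of all 9317 tested genes.

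Short genes and shared start regions were common among members. Median gene length, summed over exons, was 790 bases for mRpL and 756 for mRpS genes, beside 2174 for all tested genes. Across the 72 tested members, the fold change correlated weakly with length (Spearman 0.30) and with mean level (0.29), points that share all 8 libraries. Over all tested genes the same correlations were 0.13 with length and -0.19 with mean level. The 37 shorter members had a median of -0.29 and 12 lower calls, the 35 longer ones -0.18 and 9. All tested genes had a median of 0.02, and 9.62% were called lower. For 51 of the 73 members (69.9%), 33 mRpL and 18 mRpS, a protein-coding gene starts within 500 bases upstream on the opposite strand, where 31.7% of tested protein-coding genes have such a head-to-head neighbour.

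Of 47 such pairs with both genes tested, 8 neighbours fell (17.0%) and 2 rose (4.26%), beside 9.62% and 7.91% of all tested genes, and the fold changes of member and neighbour correlated across pairs (Spearman 0.49), which share libraries. Among the 15 members that fell and have a tested neighbour, 5 had a neighbour that fell, and 10 had one that was not called. Those 5 were Nop60B, an rRNA pseudouridine synthase, beside mRpS17, Tudor-SN beside mRpL17, Mitofilin, an organizer of mitochondrial cristae, beside mRpL35, ATPsynD, a subunit of ATP synthase, beside mRpL55, and the methyltransferase Art3 beside mRpS10. Their log2 fold changes ran from -0.46 to -0.32, and only ATPsynD was called in all 8 fits without 1 library. The neighbour of mRpL20, Icmt, gave 0.00.

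HtrA2, a protease of the mitochondrial intermembrane space, starts 126 bases from mRpL11. Its levels were 40.6, 40.6, 36.9 and 31.0 CPM in kdm5[140] against 11.3, 10.96, 12.4 and 11.3 CPM in wild type. Thus the only member that rose had a neighbour whose groups were also far apart (1.70 ± 0.10, adjusted p = 4.31e-06). Taz, the cardiolipin-remodelling enzyme tafazzin, starts 20 bases from mRpL18 and rose by 0.60 ± 0.10 (adjusted p = 0.00177), whereas mRpL18 itself gave 0.00 ± 0.11. Beside mRpL54, CG15653 fell by 1.17 ± 0.27 (adjusted p = 0.00885), at 1.44-2.84 CPM in kdm5[140] against 4.52-5.07 CPM in wild type, and was called in 1 of the 8 fits without 1 library.

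**Figure D5:**
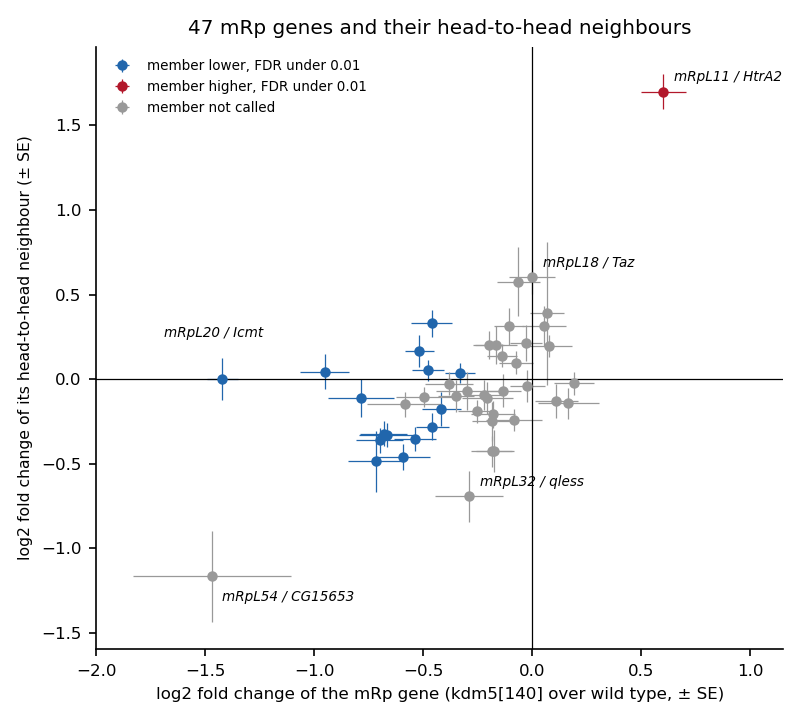
Log2 fold change (kdm5[140] over wild type) of each mRp gene (x axis) and of the protein-coding gene that starts head to head with it within 500 bases (y axis), for 47 pairs, with standard errors. The pairs mRpL11 with HtrA2 and mRpL54 with CG15653 lie at opposite ends, and mRpL20 lies at -1.42 with its neighbour Icmt at 0.00.

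Of other genes of mitochondrial translation, some translation factors and the ribosomal protein tko were also lower. Of the 24 names listed, 2 matched no gene, and mtTFB1 had 0 counts in all libraries. Of 21 tested, 4 fell and none rose, beside 9.62% and 7.91% of all tested genes. At an unadjusted p under 0.05, 11 were lower and 0 higher, beside 2056 and 1900 of all 9317 tested genes. By DESeq2, 5 were lower and 0 higher, beside 11.5% and 10.4% of its tested genes. Of the ribosomal proteins that the symbol rule misses, tko (the S12 protein) fell by 0.40 ± 0.08 (adjusted p = 0.00517), at 26.7, 26.04, 27.9 and 26.4 CPM in kdm5[140] against 30.3, 35.6, 37.8 and 37.6 CPM in wild type. The S15 protein bonsai gave -0.20 ± 0.11 (adjusted p = 0.189). Falls were also seen for 3 translation factors, CG12413 (initiation factor mIF2, -0.89), CG4447 (recycling factor mRRF1, -0.83) and ico (elongation factor mEFG1, -0.50). Of the 8 fits without 1 library, all 8 called CG12413 and ico, while 3 called CG4447 and 2 called tko. None of 8 tested factors of mitochondrial transcription and RNA was called, by edgeR or by DESeq2. At an unadjusted p under 0.05, 5 of them were lower and 0 higher, beside the same 2056 and 1900 of all 9317 tested genes. The large rRNA, mt:lrRNA, gave -0.08 ± 0.11, and the small one, mt:srRNA, 0.76 ± 0.36 (adjusted p = 0.158), in poly(A)-selected libraries.

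Cytosolic ribosomal protein genes, which make the ribosomes outside mitochondria, had mostly negative estimates and few calls. Of 85 tested, 74 were negative with a median of -0.17, beside -0.18 for mRpS and -0.25 for mRpL genes. Of the 85, 7 were called lower (8.24%) and 1 higher (1.18%), beside 9.62% and 7.91% of all tested genes, where 29.2% of the mRp genes were called lower. With DESeq2, lower calls numbered 23 of the 85 cytosolic genes and 27 of the 72 mRp genes, beside 11.5% of all its tested genes. At an unadjusted edgeR p under 0.05, 39 of the 85 cytosolic genes were lower and 1 higher, beside 36 and 2 of the 72 mRp genes. Of all 9317 tested genes, 2056 were lower and 1900 higher at that level. The share thus depends on the test and the threshold, and the difference between the 2 groups of genes was not tested.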

How the data were processed

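The authors aligned paired reads to dm6 with HISAT2 2.0.5 and counted them on genes with featureCounts 1.5.0-p3; the submitters' processing notes also name StringTie 1.3.3b and DESeq2 1.20.0. The deposited table holds whole-number counts per gene and library, which were used, and the authors' FPKM, used only as an alternative scale for levels. A mean signal per genotype and the log2 fold changes and p-values of the authors' own comparison in that table were not used. Counts were fitted with edgeR 4.0.16 in R 4.3.3 (filterByExpr, TMM, quasi-likelihood test, Benjamini-Hochberg over all tested genes, threshold 0.01), tested on simulated data beforehand. CPM are TMM-normalized, and CPM per kb divide them by the deposited gene length. Alternatives were DESeq2 1.42.0, limma voom 3.58.1, other scalings and filters, a gene length offset, a replicate block and leaving out each library. Total-count scaling was added after seeing the data. The largest and smallest fold changes, every called member, the extreme levels and genes with overlapping exons were named by rule. Members and lists were chosen with earlier results of these data known. Positions and overlaps came from the deposited table and the Ensembl 115 annotation, equal for all 73 members. Libraries of 1 genotype differed beyond sampling noise. Nothing states that the pools came from separate crosses, so p-values measure the spread between these libraries.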

Additional observations from a re-analysis of the deposited data

Results flagged for a closer look

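In 5 of the 144 sets of 4 libraries examined (72 members in 2 genotypes), 1 library lay far from the other 3, where chance gives about 7.2. Wild-type replicate 1 was lowest for mRpL30 (39.6 CPM, the others 45.7-46.2 CPM) and for mRpS25 (17.5 CPM, the others 18.1-18.2 CPM). Wild-type replicate 3 was highest for mRpL32 (19.6 CPM, the others 14.5-15.1 CPM). In kdm5[140], replicate 3 was highest for mRpL41 (12.9 CPM, the others 12.1-12.3 CPM) and for mRpL54 (13.6 CPM, the others 4.30-5.73 CPM).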

How the results depend on the processing

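The medians of both subunits stayed negative under every alternative run, and 508 of 595 values of the 35 members recomputed kept their direction and side of the threshold, 76 lost the call, 7 gained it and 4 reversed. Without 1 library, lower calls ranged from 537 to 957 in the whole table, 6 to 14 for mRpL, 4 to 7 for mRpS, 2 to 5 for other genes of mitochondrial translation and 2 to 21 for cytosolic genes, and higher calls from 423 to 870 in the whole table and 0 to 1 for cytosolic genes. The fold change of mRpS7 then ranged from -0.071 to 0.018 and that of mRpS21 from -0.14 to 0.0036, and with total-count scaling they were 0.072 and 0.0098, neither near a call. Total-count scaling also gave 9 mRpL, 4 mRpS and 3 cytosolic genes lower and a median of -0.088 for mRpS. DESeq2 called 1160 genes higher in the whole table and 23 cytosolic genes lower, an adjusted p under 0.05 gave 1536 lower and 1339 higher genes, 7 other genes of mitochondrial translation and 25 cytosolic genes lower, and the length offset 18 cytosolic genes lower. No cytosolic gene was called higher without a filter on low counts, with a mean of at least 1 CPM or with the block, 0 in each case, against 1 as reported. The cause of these shifts was not tested.

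Deviations from the genotype mean correlated over genes at 0.07, 0.12, 0.19 and -0.12 for libraries with the same replicate number. For libraries with different numbers the correlations ran from -0.255 to 0.173. Such correlations do not show how libraries were handled, so whether the numbers pair the samples is not known. A fit with the replicate number as a block called 906 genes lower and 711 higher, 12 mRpL and 5 mRpS genes lower, mRpL11 higher and 19 cytosolic genes lower. No promoter or protein sequence was analysed here.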

Other observations

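The members are spread over all major chromosome arms, and lower calls were found on each, where 9.62% of all tested genes were called lower and 7.91% higher. Arm 2L held 12 members (4 of 12 tested lower, median log2 fold change -0.22), 2R 12 (4 of 11 lower, -0.42), 3L 17 (4 of 17 lower, -0.14), 3R 21 (5 of 21 lower and mRpL11 higher, -0.24) and X 11 (4 of 11 lower, -0.30). Differences between arms were not tested.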
